A study of Drosophila melanogaster with 9 samples.

Results

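The genes described here are those of DNA replication and S phase: the helicase that opens the DNA, the proteins that load it at origins, the polymerases, the sliding clamp and its loader, the enzymes that supply nucleotides, the factors that put new DNA into chromatin, and the E2F and cyclin E regulators that switch S phase on. They are a list of 40 gene names drawn up by function, with earlier results of these data known; no threshold on a measured value selected them. Of the 40, 38 were matched to rows of the table of 15682 genes; Mcm3 and Orc1 were not analysed here, and lat, the fly Orc3 gene, was matched through a synonym. All 38 passed the filter on low values, a mean of at least 1 RPKM, and so did 7437 genes in all. RPKM is the usual read count of a gene scaled to its length and to the depth of the library.

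The series asked how RNA levels in the wing pouch, from which the adult wing blade forms, respond to hairpins against CR32027, a long non-coding RNA. Every library came from male larvae that carried the Bx-GAL4 driver, also called MS1096, together with UAS-dicer2, an enzyme that raises hairpin processing (driver stock 25706). The genotype CR32027-IR1 added hairpin line 26860, CR32027-IR2 added hairpin line 103512, and the control added an OreR wild-type chromosome set with no hairpin. Larvae grew at 25 °C to the wandering stage of the third instar, 30 discs with the notum cut away were pooled for each genotype, and 3 libraries of each genotype were made from stranded poly(A) RNA. Nota were cut away to leave the domain of the driver, and the share of the remaining cells that express it is not stated. The labels do not tell whether replicate libraries go back to different crosses, so a p-value here reflects the spread among libraries only, and that spread may be technical.

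Cells copy their DNA once in each cycle. In G1 the origin recognition complex, helped by double parked, loads the Mcm helicase onto DNA; cyclin E with Cdk2 then fires these origins, and polymerase alpha with primase starts each new strand before polymerases delta and epsilon extend it. In flies, E2f1 with Dp switches on many of the genes of this machinery, Rbf and E2f2 hold them down, and dacapo restrains cyclin E with Cdk2. Wing disc cells divide throughout larval growth, and in the wandering stage a stripe of non-cycling cells forms along the edge of the future wing.

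The libraries held 25070343 to 36512316 reads, and the genes of the list had 194 to 12113 reads each in a library (median 2165). Wing pouch markers (5 of 6 listed were matched: nub, vg, sd, Dll and dve) summed to 56.2 to 65.8 RPKM in the 9 libraries and notum markers to 1.63 to 2.52 RPKM. CR32027 itself was lower in CR32027-IR2 (0.905 ± 0.432 RPKM, SD, n = 3) than in OreR (2.74 ± 0.495), a log2 difference of -0.99 with a limma adjusted p of 0.0171, and 0.0779 when OreR replicate 2 was left out; the exact two-sided permutation test gave 0.1, the smallest p that 3 against 3 allows. The mean of the libraries labelled CR32027-IR1 was not below that of OreR (3.57 ± 0.793 RPKM, log2 difference 0.29, limma adjusted p = 0.348), so each direction given for that genotype rests on the label alone. One of these libraries also stood apart in the list: CR32027-IR1 replicate 2 was the lowest of its genotype for 36 of the 38 genes, against 50.3% of all genes tested. Counts of calls in the list are therefore given with and without it, and the genes of the list whose call depends on it are named. It was singled out for its low values in the list. Calls gained without it, also in the accounts of single genes below, therefore follow in part from that choice. Calls in the other gene lists are given with all libraries only.

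In the libraries labelled CR32027-IR1, 34 of the 38 genes lay above OreR, with a median log2 difference of 0.19 where the median of all genes was 0.01, but few differences passed the test. Orc4 and PolA1 were called higher and none was called lower. A call is an adjusted p under 0.05 from limma, a linear model fitted to log2(RPKM + 1) of all 7437 genes at once, with p-values adjusted over all of them by the Benjamini-Hochberg method. The 2 calls are 5.26% of the list, where 6.09% of all genes were called higher and 7.61% lower, so the share of calls was near the background. The 3 libraries lay wholly above the 3 OreR libraries for 8 of the 38 genes (Mcm7, dpa, Orc4, Orc5, PolA1, Rbf, E2f2 and Caf1-180), or 21.1%, where 16.2% of all genes did; they lay wholly below for 0 of the 38, where 14.6% of all genes did. Some tissue markers also differed in this comparison: the wing pouch sum was 61.6, 62.2 and 56.2 RPKM in CR32027-IR1 and 64.2, 64.3 and 65.8 RPKM in OreR, and the trachea marker trh was at 3.91, 3.32 and 3.21 RPKM in CR32027-IR1, at 3.77, 3.57 and 3.62 RPKM in CR32027-IR2 and at 5.001, 5.12 and 4.48 RPKM in OreR. Neither overlapped between CR32027-IR1 and OreR. Within the wing pouch sum, nub, vg and dve were lower in all CR32027-IR1 libraries than in all OreR libraries. The ranges of sd (21.1 to 24.5 against 21.6 to 24.6 RPKM) and of Dll overlapped. In CR32027-IR2, nub, dve and trh also lay below all OreR libraries. The part of these markers in the result was not tested. Muscle precursor and fat body markers summed to 0.771 to 1.22 and 0.0307 to 1.29 RPKM over the 9 libraries. Without CR32027-IR1 replicate 2, 16 of the 38 (42.1%) were called higher, where 9.69% of all genes then were. That library was singled out for its low values in this list, so part of this rise follows from that choice. The count was 1 when CR32027-IR1 replicate 1, either of CR32027-IR2 replicates 2 and 3, or any 1 OreR library was the one left out. In those fits 2.49% to 4.92% of all genes were called higher.

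In CR32027-IR2 no gene of the list was called against OreR by limma on RPKM. None was called by limma voom on the whole reads recovered from the RPKM values. An unadjusted limma p under 0.05 was reached by 0 of the 38 and by 18.3% of all genes. Of all genes tested, 2.93% were called higher and 2.22% lower. The log2 differences ran from -0.15 (Caf1-105) to 0.14 (CycE), with a median of -0.01, and 15 of the 38 lay above 0. The sign of that median turned with the scaling: it was 0.01 when libraries were rescaled by the median ratio. The 95% interval of every one of the 38 differences lay within 0.5 of 0 on the log2 scale, reaching 0.12 to 0.34 to either side of the estimate. One gene had all 3 libraries above OreR (Mcm7; 11.6% of all genes did) and 1 had all 3 below (E2f1; 16.6% of all genes did).

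The direct comparison of the hairpin lines gave 7 calls, all higher in the libraries labelled CR32027-IR1: Orc4, Orc5, PolA1, Prim1, Prim2, Mcm5 and Caf1-105. That is 18.4% of the list, beside 12.3% of all genes called higher and 9.57% called lower. The median log2 difference over the list was 0.17 and that of all genes 0.03. The libraries did not overlap, with the CR32027-IR1 side higher, for 8 of the 38 (21.1%; 22.5% of all genes), and with that side lower for 0 of the 38 (16.8% of all genes). The count of 7 depended on single libraries, and so did the share of all genes called higher, given here in brackets. The count was 17 without CR32027-IR1 replicate 2 (17.98%). It was 1 without CR32027-IR1 replicate 1 (6.22%) or CR32027-IR2 replicate 3 (6.39%). It was 2 without CR32027-IR1 replicate 3 (10.2%) or CR32027-IR2 replicate 1 (7.83%), and 4 without CR32027-IR2 replicate 2 (6.96%) or OreR replicate 3 (11.2%). Of the neuron and glia markers, moody differed between the lines: it was at 6.80, 5.97 and 5.67 RPKM in CR32027-IR2 and at 0.924 to 1.83 RPKM in the other 6 libraries. The other 2 did not separate them, with elav at 3.20 to 3.70 RPKM over the 9 libraries and repo at 0 to 0.0256 RPKM; the part of moody in the result was not tested. This comparison and the one against OreR share the CR32027-IR1 libraries, and both comparisons against OreR share the OreR libraries, so their counts are not independent.

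**Figure D1:**
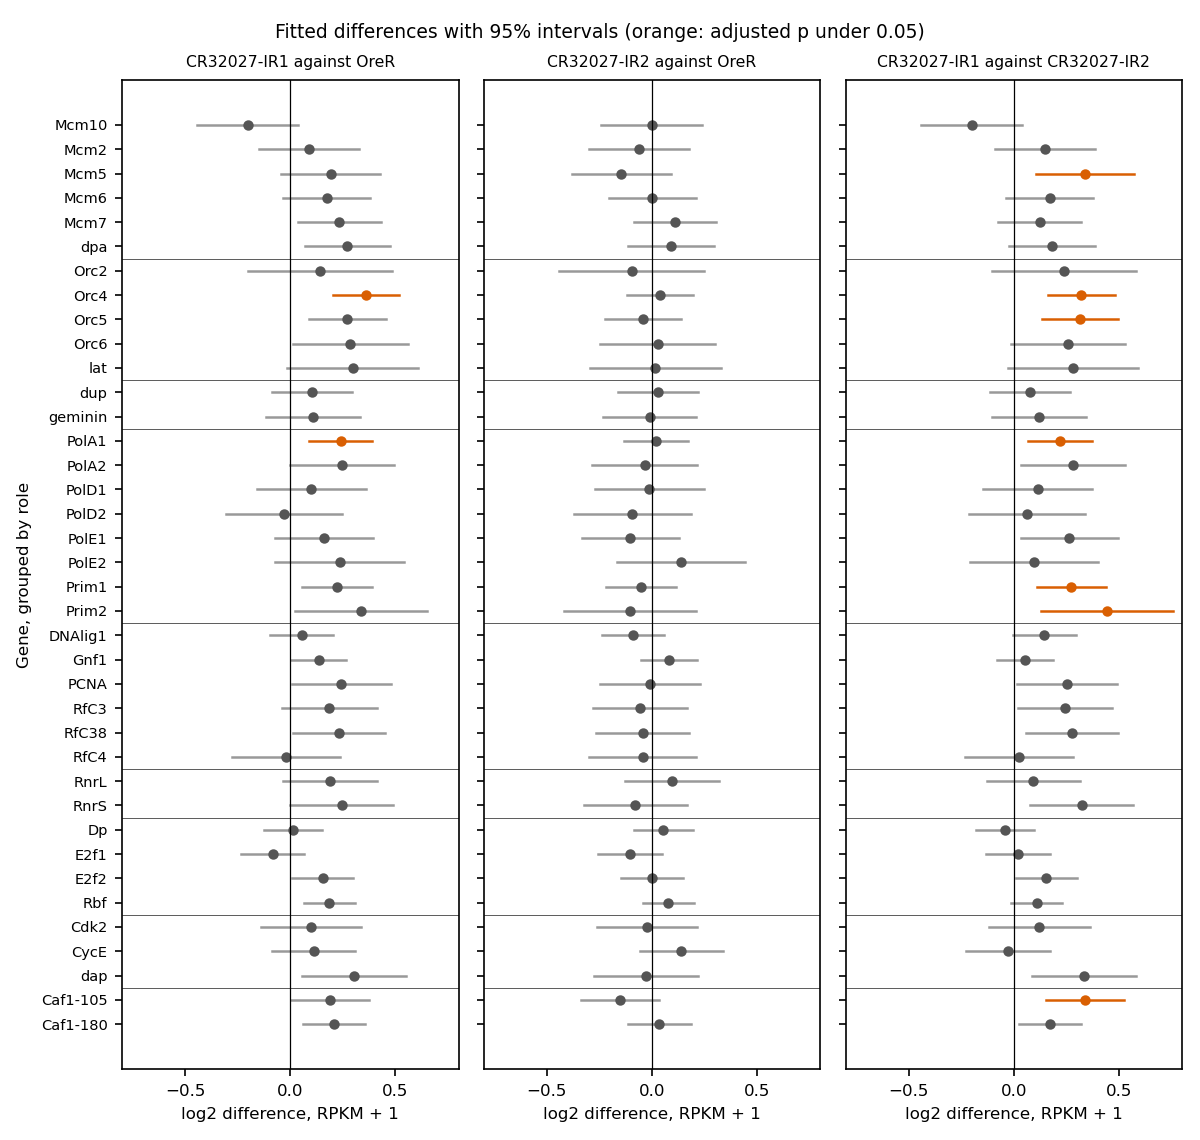
Fitted log2 differences (x axis, log2 of RPKM + 1) with 95% intervals for the 38 genes (y axis, grouped by role) in the 3 comparisons of 3 against 3 libraries; orange marks an adjusted p under 0.05. There are 2 orange genes on the left, 0 in the middle and 7 on the right, and all intervals in the middle panel lie within 0.5 of 0.

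Before an origin can fire it must be bound and licensed. The origin recognition complex, which binds origins and recruits the helicase loaders, was the group with the largest median difference in the libraries labelled CR32027-IR1: its 5 measured subunits all lay above OreR, by a median log2 difference of 0.28, and 1 passed the test. Its summed level was 79.3, 67.6 and 85.7 RPKM in these libraries and 57.7, 69.5 and 61.8 RPKM in OreR. Replicate 2 of CR32027-IR1 lay below OreR replicate 2 in that sum, so the groups overlapped.

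Orc4, a subunit of this complex (FBgn0023181, chromosome 2R, 24795740 to 24797414 in BDGP6), was at 29.4, 24.7 and 29.6 RPKM in CR32027-IR1 replicates 1 to 3, at 21.3, 22.9 and 22.1 RPKM in CR32027-IR2 and at 20.7, 22.0 and 21.7 RPKM in OreR. All 3 libraries labelled CR32027-IR1 were above all 6 others, and CR32027-IR2 and OreR overlapped. The means were 27.9 ± 2.78 RPKM (SD, n = 3), 22.1 ± 0.759 and 21.5 ± 0.664. The log2 difference from OreR was 0.36 ± 0.07 (SE; limma adjusted p = 0.0108) and that from CR32027-IR2 was 0.32 ± 0.07 (limma adjusted p = 0.0124, and 0.0506 without CR32027-IR1 replicate 1). With limma array weights, which lower the weight of variable libraries, both calls were lost (limma adjusted p = 0.0627 and 0.0589). The estimation of these weights gave a convergence warning. Orc4 shares 33 exon bases with the antisense gene asRNA:CR43257, at a mean of 3.06 RPKM; the strand setting of the authors' counting was not given in the sources used here.

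Orc5, another subunit, stood at 17.1, 16.7 and 20.04 RPKM in the libraries labelled CR32027-IR1, at 13.8, 14.6 and 14.2 RPKM in CR32027-IR2 and at 13.5, 16.1 and 14.5 RPKM in OreR. The CR32027-IR1 values again lay above the other 6, by a small margin over OreR replicate 2. The log2 difference was 0.31 ± 0.08 (SE) from CR32027-IR2 (limma adjusted p = 0.0223; 0.0535 to 0.0726 when any 1 CR32027-IR2 library was left out) and 0.27 ± 0.08 from OreR, which missed the threshold (limma adjusted p = 0.0531, and 0.0373 without CR32027-IR1 replicate 2). Orc5 shares 95 exon bases with GatC and PolG2 on the opposite strand, which were at a mean of 35.1 RPKM. Orc2, Orc6 and lat, the other measured subunits, had log2 differences from OreR of 0.14 to 0.30 and none passed the test. The row of lat holds the level of a gene pair and not of lat alone: its 3315 exon bases are all shared with CG34315 on the same strand, and both genes have the same RPKM (mean 4.09).

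Licensing itself showed small differences. Double parked (dup), which brings the helicase to the origin, was at 17.6 ± 1.63 RPKM in CR32027-IR1, 16.6 ± 0.881 in CR32027-IR2 and 16.3 ± 1.60 in OreR (SD, n = 3). Geminin, the inhibitor that keeps double parked from licensing an origin again, was at 135 ± 17.9, 123 ± 7.55 and 125 ± 9.81 RPKM. The limma log2 differences of both from OreR were 0.10 to 0.11 in CR32027-IR1, and their libraries overlapped. Without CR32027-IR1 replicate 2, geminin was called higher than in CR32027-IR2 (log2 difference 0.23, limma adjusted p = 0.0462).

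**Figure D2:**
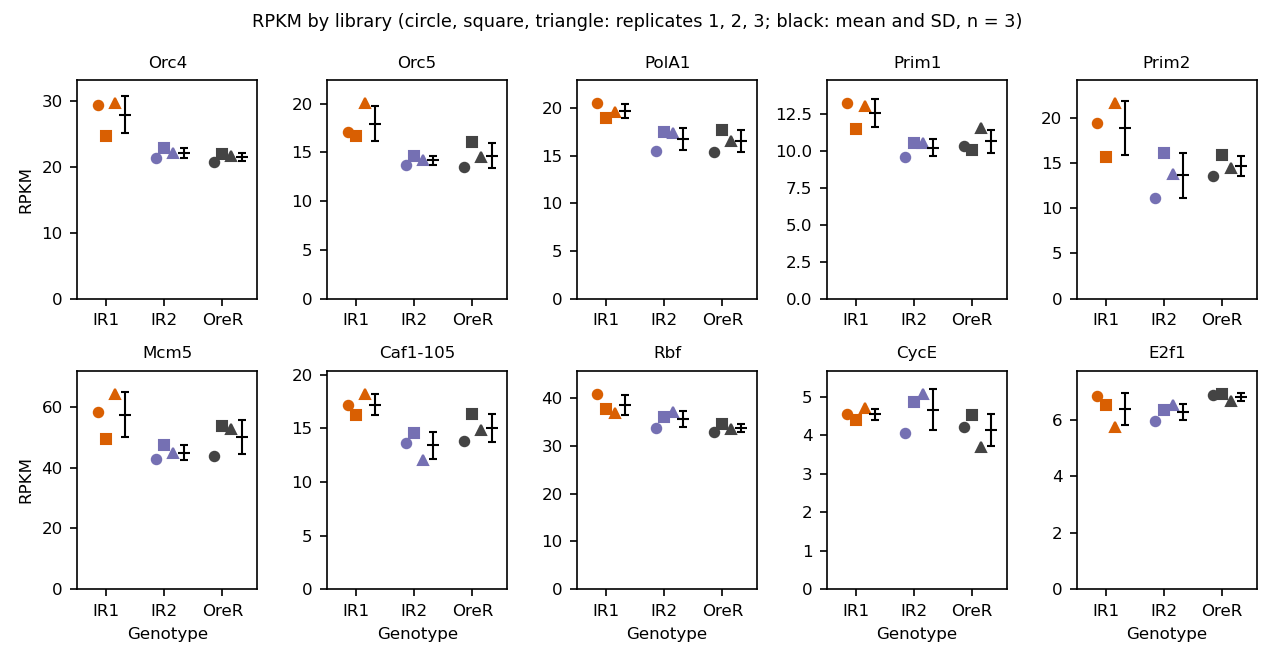
RPKM (y axes, from 0) in each of the 9 libraries for the 10 genes given in full, by genotype (x axis; IR1 and IR2 stand for CR32027-IR1 and CR32027-IR2), with the mean and SD of 3 libraries in black. Orc4 and Orc5 have all 3 IR1 libraries above the other 6, while Prim2 and CycE overlap between genotypes.

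The Mcm helicase unwinds DNA at the fork as a ring of related subunits, with Mcm10 as a factor that helps to activate it. The 5 ring subunits measured (Mcm2, dpa, Mcm5, Mcm6 and Mcm7) lay above OreR in the libraries labelled CR32027-IR1, with log2 differences of 0.09 to 0.27, and none of them was called. Mcm10 was the gene with the most negative difference in the list (-0.20 ± 0.11, SE; limma adjusted p = 0.238): it was at 10.8, 9.92 and 12.7 RPKM in CR32027-IR1 and at 12.4, 15.1 and 11.5 RPKM in OreR, and these ranges overlapped.

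Mcm5 was at 58.4, 49.5 and 64.2 RPKM in CR32027-IR1, at 42.8, 47.4 and 44.7 RPKM in CR32027-IR2 and at 43.7, 53.8 and 52.6 RPKM in OreR. The lines labelled CR32027-IR1 and CR32027-IR2 did not overlap, but 2 OreR libraries lay above CR32027-IR1 replicate 2. The difference between the hairpin lines was 0.34 ± 0.10 (SE; limma adjusted p = 0.0462), and leaving out any 1 library other than CR32027-IR1 replicate 2 or OreR replicate 1 ended the call (0.0547 to 0.129). Against OreR the log2 difference was 0.19 (limma adjusted p = 0.253). Mcm7 was at 71.3, 64.9 and 82.2 RPKM in CR32027-IR1, 64.4, 70.9 and 64.4 RPKM in CR32027-IR2 and 56.8, 63.8 and 64.3 RPKM in OreR. It was the gene whose 6 hairpin libraries all lay above OreR, by less than 1 RPKM at the closest. Neither difference passed the test (log2 0.23 and 0.11, limma adjusted p = 0.111 and 0.582). Mcm7 shares 2003 of its 2451 exon bases with asRNA:CR45871 on the opposite strand, for which no level was available.

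Primase and polymerase alpha make the short starter of every new strand. Their 4 genes lay above OreR in the libraries labelled CR32027-IR1 by log2 differences of 0.22 to 0.34, and 1 passed the test; 3 of them passed it against CR32027-IR2. PolA1, the catalytic subunit of polymerase alpha, was at 20.5, 19.0 and 19.6 RPKM in CR32027-IR1, at 15.4, 17.5 and 17.4 RPKM in CR32027-IR2 and at 15.4, 17.7 and 16.5 RPKM in OreR. The CR32027-IR1 libraries lay above the other 6, which overlapped among themselves. The log2 difference was 0.24 ± 0.07 (SE) from OreR (limma adjusted p = 0.046) and 0.22 ± 0.07 from CR32027-IR2 (limma adjusted p = 0.044). Both calls were fragile: each was lost under 12 of 20 other settings, with an adjusted p of up to 0.332, among them without CR32027-IR1 replicate 1 (0.143 and 0.141).

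Prim1, the catalytic primase subunit, was at 13.2, 11.5 and 13.0 RPKM in CR32027-IR1, at 9.56, 10.6 and 10.5 RPKM in CR32027-IR2 and at 10.3, 10.1 and 11.5 RPKM in OreR. The hairpin lines did not overlap, whereas OreR replicate 3 reached the lowest CR32027-IR1 library. Its log2 difference between the lines was 0.27 ± 0.07 (SE; limma adjusted p = 0.0264) and leaving out any 1 hairpin library other than CR32027-IR1 replicate 2 ended the call (0.0575 to 0.0957). Against OreR the log2 difference was 0.22 (limma adjusted p = 0.0777, and 0.0301 without CR32027-IR1 replicate 2). Part of the deposited Prim1 length (2092 bases of span) also belongs to CG7083 on the same strand, with 0 exon bases shared. CG7083 was at a mean of 12.2 RPKM. The share of the Prim1 reads that comes from CG7083 is not known, so these values may not be those of Prim1 alone.

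Prim2, the regulatory primase subunit, was at 19.4, 15.7 and 21.6 RPKM in CR32027-IR1, at 11.1, 16.1 and 13.8 RPKM in CR32027-IR2 and at 13.6, 15.9 and 14.5 RPKM in OreR. Replicate 2 of CR32027-IR1 lay below replicate 2 of both other genotypes, so the groups overlapped. The log2 difference between the hairpin lines, 0.44 ± 0.14 (SE), was the largest in the list and passed the threshold by the least (limma adjusted p = 0.04997); 15 of 20 other settings ended this call. The polymerases that extend the strands, PolD1, PolD2, PolE1 and PolE2, had 0 calls in the 3 comparisons with all libraries. PolD2 had a log2 difference of -0.03 from OreR in CR32027-IR1. Without CR32027-IR1 replicate 2, PolE2 was called against OreR and PolE1 against CR32027-IR2 (limma adjusted p = 0.0446 and 0.0486).

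PCNA, the sliding clamp that holds the polymerases on DNA, was the most abundant gene of the list. It was at 297, 246 and 337 RPKM in CR32027-IR1, at 228, 260 and 245 RPKM in CR32027-IR2 and at 237, 262 and 239 RPKM in OreR. Replicates 1 and 3 of CR32027-IR1 were above all OreR and CR32027-IR2 libraries, and replicate 2 was inside their range. The log2 difference from OreR was 0.24 ± 0.11 (SE; limma adjusted p = 0.159), and 0.36 without CR32027-IR1 replicate 2 (limma adjusted p = 0.0166). The clamp loader genes Gnf1, RfC3, RfC4 and RfC38 and the ligase DNAlig1, which seals the joined fragments, gave 0 calls in the 3 comparisons with all libraries. RfC3 and RfC38 were called against OreR and against CR32027-IR2 without CR32027-IR1 replicate 2.

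Both subunits of ribonucleotide reductase, which makes the deoxynucleotides, lay above OreR in CR32027-IR1 without passing the test. RnrL was at 83.6 ± 8.78 RPKM in CR32027-IR1, 78.1 ± 5.20 in CR32027-IR2 and 73.3 ± 8.35 in OreR, and RnrS at 107 ± 13.4, 84.8 ± 8.46 and 89.7 ± 8.72 RPKM (SD, n = 3). The RnrS difference between the hairpin lines was 0.32 ± 0.11 (SE; limma adjusted p = 0.0614, and 0.0133 without CR32027-IR1 replicate 2).

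Chromatin assembly factor deposits histones on the new DNA. Its subunit Caf1-105 was at 17.2, 16.2 and 18.2 RPKM in CR32027-IR1, at 13.7, 14.5 and 12.0 RPKM in CR32027-IR2 and at 13.8, 16.4 and 14.9 RPKM in OreR. The hairpin lines did not overlap, and OreR reached into the CR32027-IR1 range with replicate 2. The difference between the lines was 0.34 ± 0.08 (SE; limma adjusted p = 0.018); it ended without CR32027-IR1 replicate 1 (0.0568), CR32027-IR1 replicate 3 (0.0511) or CR32027-IR2 replicate 3 (0.0623). Caf1-105 also had the lowest log2 difference of CR32027-IR2 from OreR (-0.15 ± 0.08, SE; limma adjusted p = 0.379). The large subunit Caf1-180 was at 23.8 ± 1.08, 21.0 ± 1.33 and 20.5 ± 1.40 RPKM and was not called; without CR32027-IR1 replicate 2 it was called higher than OreR (limma adjusted p = 0.0461).

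None of the regulators of S phase entry was called in any of the 3 comparisons. Rbf, the fly retinoblastoma protein that holds E2F targets down, was at 40.9, 37.9 and 36.9 RPKM in CR32027-IR1, at 33.8, 36.2 and 37.1 RPKM in CR32027-IR2 and at 33.01, 34.7 and 33.6 RPKM in OreR. All CR32027-IR1 libraries lay above all OreR libraries, and the hairpin lines overlapped. Its log2 difference from OreR, 0.19 ± 0.05 (SE), narrowly missed the threshold (limma adjusted p = 0.0517), and that of CR32027-IR2 was 0.08 (limma adjusted p = 0.522).

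E2f1, the activator of these genes, was at 6.85, 6.52 and 5.76 RPKM in CR32027-IR1, at 5.95, 6.35 and 6.51 RPKM in CR32027-IR2 and at 6.86, 6.91 and 6.65 RPKM in OreR. The 3 OreR libraries were above all CR32027-IR2 libraries and overlapped with CR32027-IR1. The log2 differences from OreR were -0.08 in CR32027-IR1 and -0.10 ± 0.07 (SE) in CR32027-IR2 (limma adjusted p = 0.444 and 0.479). E2f2, the repressive family member, had a log2 difference of 0.15 from OreR in CR32027-IR1 and Dp, the common partner of both, 0.01, and neither was called.

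CycE, the cyclin that drives S phase entry, was at 4.55, 4.39 and 4.70 RPKM in CR32027-IR1, at 4.06, 4.87 and 5.08 RPKM in CR32027-IR2 and at 4.21, 4.52 and 3.70 RPKM in OreR. The 3 genotypes overlapped. Its log2 difference of CR32027-IR2 from OreR, 0.14 ± 0.09 (SE; limma adjusted p = 0.461), was the highest in the list in that comparison. Its partner Cdk2 was at 36.9 ± 4.97, 33.7 ± 2.11 and 34.3 ± 3.89 RPKM (SD, n = 3). Dacapo (dap), the inhibitor of cyclin E with Cdk2, was at 32.2, 26.2 and 35.4 RPKM in CR32027-IR1, at 22.5, 25.9 and 25.0 RPKM in CR32027-IR2 and at 22.4, 26.9 and 25.8 RPKM in OreR. Replicates 1 and 3 of CR32027-IR1 stood above all other libraries, and replicate 2 lay below OreR replicate 2. Its log2 differences of 0.30 from OreR and 0.33 from CR32027-IR2 did not pass the test (limma adjusted p = 0.102 and 0.0586). They passed it without CR32027-IR1 replicate 2 (limma adjusted p = 0.0161 and 0.00799), the library singled out for its low values in this list.

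**Figure D3:**
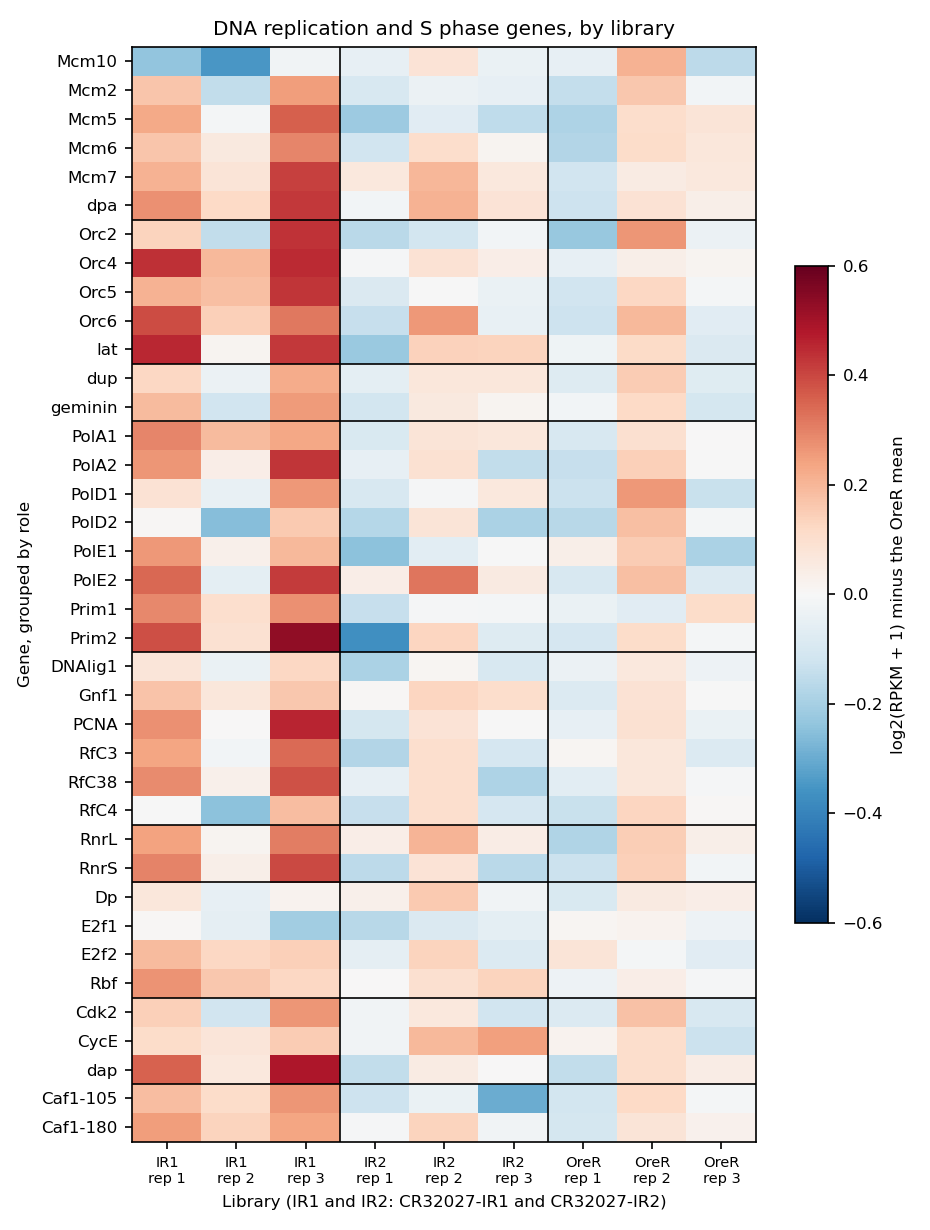
Heat map of log2(RPKM + 1) minus the OreR mean (colour) for the 38 genes (rows, grouped by role) in the 9 libraries (columns). CR32027-IR1 replicates 1 and 3 are mostly red, while CR32027-IR1 replicate 2 is the lowest of its genotype in 36 rows and OreR replicate 2 the highest of its genotype in 35.

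The 38 genes varied together between libraries of the same genotype. Within a genotype, their SD on the log2 scale had a median of 0.141, against 0.0900 for all genes tested and 0.0759 for E2f1, E2f2, Dp and Rbf. The median deviation of the list from the OreR mean was 0.22, 0.03 and 0.27 in CR32027-IR1 replicates 1 to 3. It was -0.10, 0.08 and -0.02 in the CR32027-IR2 libraries, and the OreR libraries had -0.10, 0.11 and -0.01; that of all genes stayed between -0.03 and 0.03. CR32027-IR1 replicate 2 was thus near the OreR mean and inside the range of the OreR libraries, and replicates 1 and 3 were above it.

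The order of the libraries was nearly the same from gene to gene. CR32027-IR1 replicate 2 was the lowest of its genotype for all but E2f1 and Rbf, OreR replicate 2 was the highest for all but Mcm7, Prim1 and E2f2, and CR32027-IR2 replicate 2 was the highest for all but Orc2, PolE1, PolD1, E2f1, Rbf and CycE. All 3 of these held at once for 29 of the 38 genes (76.3%) and for 12.9% of all genes tested. The pattern was chosen after the values were seen and is a description of these 9 libraries. Its parts were not particular to the list. Each taken alone, in the order given, they held for 92.3%, 80.8% and 92.3% of 26 mitosis genes, described below. The shares were 84.6%, 76.9% and 69.2% of 26 other replication genes, and 50.3%, 34.1% and 38.3% of all genes. Among 14 E2F, Rbf and Myb complex and G1 genes they were 50%, 42.9% and 57.1%. In bulk tissue, fewer cells in S phase and less RNA per cell cannot be told apart.

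Without CR32027-IR1 replicate 2, 16 genes were called higher than OreR: Orc4 and PolA1, as before, and 14 more, which were dpa, Mcm7, Orc5, lat, PCNA, RnrS, PolA2, Prim1, Prim2, PolE2, RfC3, RfC38, dap and Caf1-180, with limma log2 differences up to 0.46 (Prim2). Against CR32027-IR2, 17 were called higher (44.7%, where 17.98% of all genes then were), the 7 called with all libraries and 10 more. The 10 were Mcm2, lat, PCNA, RnrS, PolA2, PolE1, RfC3, RfC38, geminin and dap. CR32027-IR1 replicate 2 was singled out for its low values in this list, so these gains follow in part from that choice. Markers of hemocytes, the blood cells that adhere to discs, moved with this library: the summed level of Hml, NimC1, He and srp was 6.46, 0.99 and 7.75 RPKM in CR32027-IR1, 6.11, 3.06 and 3.47 RPKM in CR32027-IR2 and 3.88, 5.11 and 8.17 RPKM in OreR, with none of the 4 at 0 in any library. Their part in the result was not tested.

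**Figure D4:**
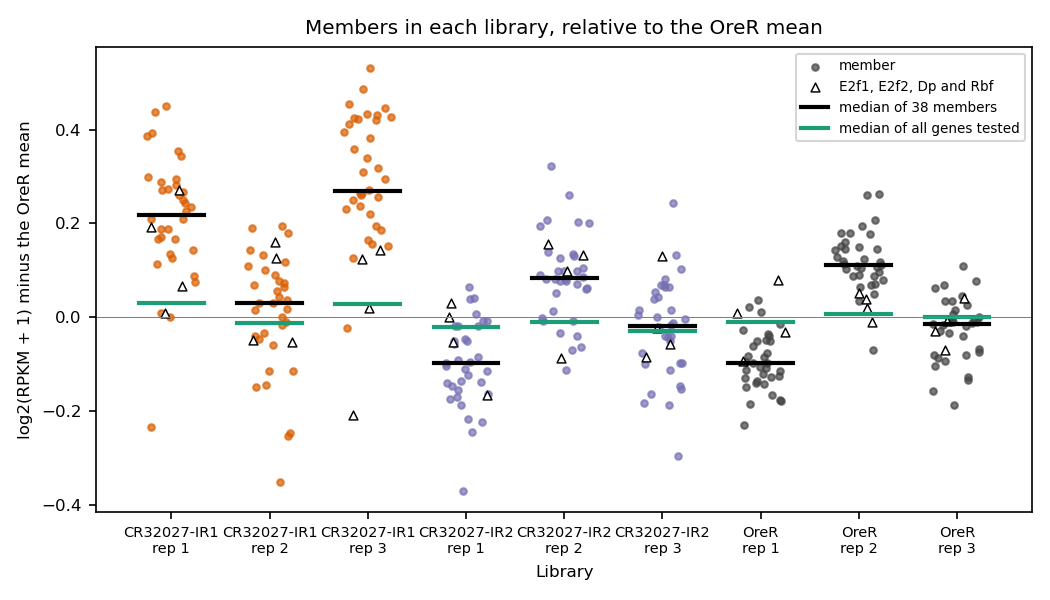
Deviation of each of the 38 genes from its OreR mean (y axis, log2 of RPKM + 1) in the 9 libraries (x axis), with medians of the list (black bars) and of all genes tested (green bars); triangles are E2f1, E2f2, Dp and Rbf. The black bar is at 0.22 and 0.27 in CR32027-IR1 replicates 1 and 3 and at 0.03 in replicate 2, while the green bars stay within 0.03 of 0.

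Levels within the machinery were compared per exonic kilobase, because the length that the deposited RPKM divides by was within 2% of the whole genomic span, introns included, for 78.7% of 5773 genes with introns. Whether reads in introns were counted too is not known, and if they were, the exonic levels are too high. On the exonic scale, in OreR and leaving out lat, PCNA was highest at 254 ± 13.99 RPKM (SD, n = 3) and PolE1 lowest at 8.40 ± 1.11 RPKM, a 30.2-fold range. The 5 measured ring subunits of the Mcm helicase lay within 1.49-fold of each other, from Mcm2 at 45.9 to Mcm7 at 68.3. The origin recognition subunits other than lat spread over 2.93-fold, from Orc6 at 8.70 to Orc4 at 25.5, and the clamp loader genes over 3.04-fold, from RfC3 at 30.3 to RfC4 at 92.2. The pairs PolE1 with PolE2, Caf1-105 with Caf1-180 and RnrL with RnrS differed 1.34-fold, 1.30-fold and 1.56-fold in their exonic levels. In the order of these levels, the OreR libraries of neighbouring genes overlapped for 29 of 36 pairs; the 7 steps without overlap were Orc6 to PolE2, Caf1-180 to DNAlig1, Orc4 to Prim1, Mcm6 to Mcm7, Mcm7 to RnrL, RfC4 to geminin and RnrS to PCNA.

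The choice of length moved genes with long introns most. E2f1, with a span of 40568 bases and 6451 exonic bases, had a mean of 6.48 deposited RPKM over the 9 libraries, rank 36 of 38, and 40.3 per exonic kilobase, rank 14; mir-11 and mir-998 lie inside its span. CycE went from 4.45 to 17.99, Prim1 from 11.2 to 29.1 and Dp from 49.5 to 89.4. These exonic values may include reads in introns or of genes inside the span, such as CG7083 for Prim1, so the new ranks are uncertain. The length is the same in every library, so a ratio of RPKM between genotypes does not depend on it; a difference of log2(RPKM + 1) does, through the added 1, mostly in genes of low RPKM.

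**Figure D5:**
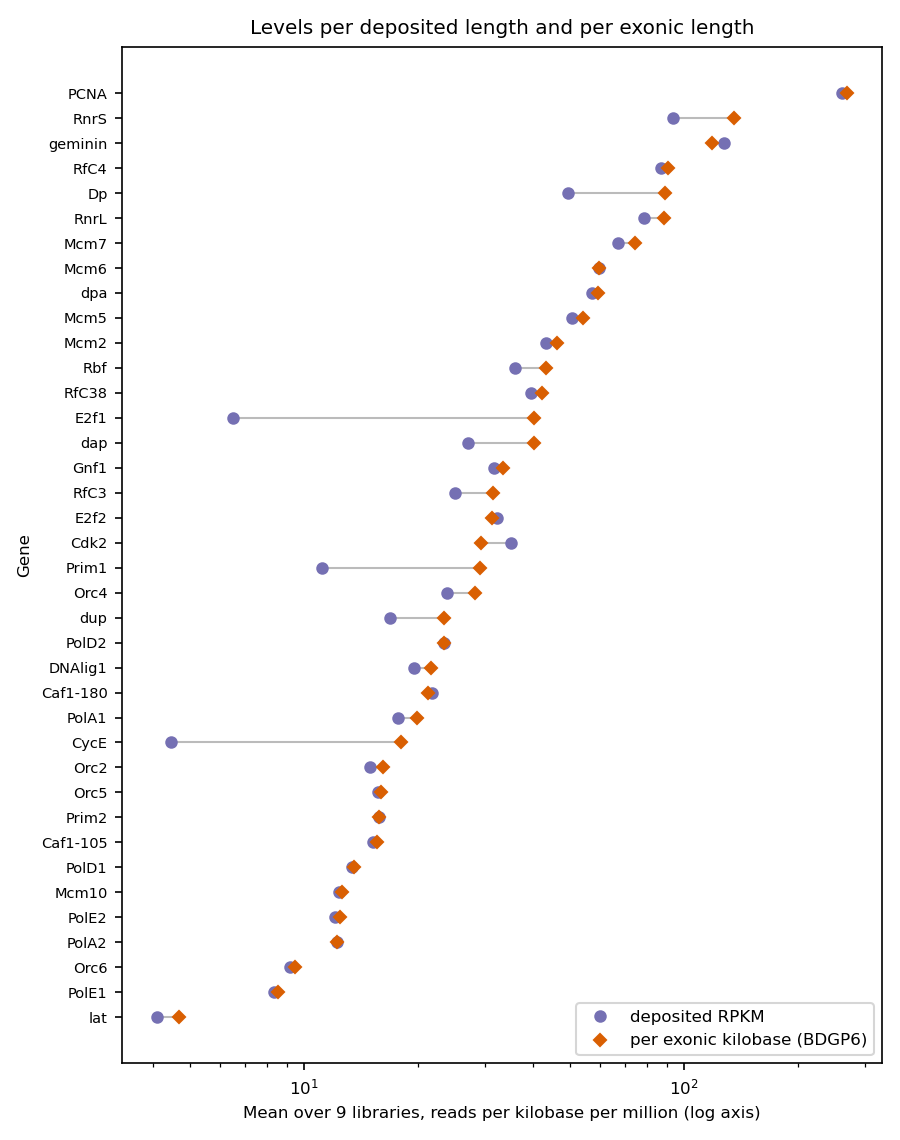
Mean level over 9 libraries (x axis, log scale) of the 38 genes (y axis) per deposited length (circles) and per exonic kilobase of BDGP6 (diamonds). E2f1 moves from 6.48 to 40.3 and CycE from 4.45 to 17.99, while most genes lie close to the same place on both scales.

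The genes lie on all large chromosome arms. There were 12 of 38 on 2R (31.6%, where 19.3% of all genes tested are), 3 on X (7.89%; 16.2% of all genes), 7 on 2L, 7 on 3L and 9 on 3R. Another gene's span overlaps with 19 of the 38, and 18 share exon bases with one.

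Of 31 other replication genes listed by role, 26 were matched and tested (RPA2, RPA3, Top2, Timeout and PolD3 were not analysed here). In the libraries labelled CR32027-IR1, 2 were called higher than OreR and 1 lower, with a median log2 difference of 0.14. These are 7.69% and 3.85% of the 26, where 6.09% of all genes were called higher and 7.61% lower. Claspin, a mediator of the replication checkpoint, was the clearest (14.8 ± 0.362 RPKM against 10.6 ± 0.863, SD, n = 3; log2 0.44 ± 0.07, SE; limma adjusted p = 0.00415), and Cdc6, which loads the helicase beside the origin recognition complex, rose by a log2 difference of 0.35 (limma adjusted p = 0.0254). Psf2, a subunit of the GINS complex that turns the Mcm ring into an active helicase, went the other way: it was at 8.27 ± 1.38 RPKM in CR32027-IR1, 11.8 ± 1.02 in CR32027-IR2 and 11.3 ± 0.918 in OreR. Its log2 difference was -0.42 ± 0.11 (SE) from OreR (limma adjusted p = 0.0367) and -0.47 from CR32027-IR2 (limma adjusted p = 0.0161).

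In CR32027-IR2 none of these 26 genes was called against OreR (limma), and the median log2 difference was 0.01. An unadjusted limma p under 0.05 was reached by 1 of the 26 (3.85%) and by 18.3% of all genes. Between the hairpin lines 3 (11.5%; 12.3% of all genes) were called higher in CR32027-IR1 and 1 (3.85%; 9.57% of all genes) lower. The higher ones were PolE4, a small subunit of polymerase epsilon (log2 0.40, limma adjusted p = 0.0281), Rif1, which sets replication timing (0.31, 0.0296), and Cdc45, a partner of the active helicase (0.24, 0.0461). CR32027-IR1 replicate 2 was the lowest of its genotype for 22 of the 26 genes.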

How the data were processed

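The values are RPKM per gene in 9 libraries, as deposited by the authors in one table. Per the submitters' processing notes, CASAVA 1.8.2 and TopHat2 were used with the dm3 genome; how reads were counted, on which strand, with which annotation and with what filter was not given in the sources used here. From the steps between low values, whole reads were recovered for 9499 of 9499 genes whose mean reached 0.05 RPKM (within 0.01 reads), which gave the depths. Gene IDs were matched to BDGP6, whose coordinates are printed; none was converted. Genes whose mean reached 1 RPKM were tested with limma 3.58.1 in R 4.3.3 on log2(RPKM + 1), with a mean-variance trend, all 9 libraries in one fit and 3 contrasts; a fold change on this scale understates that of low genes. Intervals are 95% and assume 6 residual degrees of freedom before moderation. The fit was also run on simulated reads in which known genes were changed. Noise in them was drawn separately for each gene and library, so that run does not bear on shifts that genes of a library share. Spread within a genotype is the pooled SD on the log2 scale, and precision is limited by 3 libraries a genotype.

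The members and all gene lists were chosen with earlier results of these data known. Given in full were the members called in any contrast and the 4 with the smallest p in each; Mcm7, Mcm10, PCNA and dap were added after their values were seen. Promoter motifs and sequences were not analysed here. All 9 libraries were kept in the reported fit.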

Additional observations from a re-analysis of the deposited data

How the results depend on the processing

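Of 299 values of the 15 results given for single members under other settings, 224 kept their direction and their side of the threshold, 69 kept the direction and lost the call, 6 gained one and 0 reversed. Results not called with all libraries had no call to lose, so the 69 losses all fell on the called ones. Between the hairpin lines, 20 other settings each ended the call of Prim2 in 15, Mcm5 and PolA1 in 12, Prim1 in 7, Orc5 and Caf1-105 in 4 and Orc4 in 2. Against OreR, the call was lost in 12 for PolA1 and in 1 for Orc4. Members called in CR32027-IR2 against OreR stayed at 0 under every setting tried. The 2 members called in CR32027-IR1 against OreR became 1 with no filter, with no trend or with only the 2 groups fitted, 4 with a filter of 5 RPKM, 3 with median-ratio or upper-quartile scaling, 0 with array weights, and 1 to 16 when 1 library was left out. Over the same settings 1.48% (array weights) to 9.69% (without CR32027-IR1 replicate 2) of all genes were called higher. The 7 members called between the hairpin lines became 3 with no filter, 4 with no trend or only the 2 groups fitted, 0 with array weights, and 1 to 17 when 1 library was left out. The share of all genes called higher between the lines ran from 4.10% (array weights) to 17.98% (without CR32027-IR1 replicate 2). Of all genes, 1019 were called in CR32027-IR1 against OreR (371 with array weights, 612 with only the 2 groups fitted, 481 to 1321 with 1 library left out, 1105 by voom), 383 in CR32027-IR2 against OreR (972 with array weights, 181 to 507, 377 by voom) and 1625 between the lines (706 with array weights, 967 to 2166, 1685 by voom). The causes of these changes were not tested. The array weights gave a convergence warning, so the counts obtained with them are uncertain. Voom was added after seeing the data.

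Over all genes tested, deviations of same-numbered libraries correlated at -0.24 to 0.12, over 0.1 in 1 of 9 pairs, against 5 of 18 other pairs. The replicate numbers thus gave no clear pairing over all genes. In the list, the library medians of CR32027-IR2 and OreR ran in the same order by number, and pairing within the list was not tested. With the number as a replicate block, 565, 222 and 1097 genes and 1, 0 and 4 members were called in these 3 comparisons.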

Other observations

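Genes of mitosis, the later phase of the division cycle, were listed in the same way, and 26 of 27 were matched and tested (Cenp-C was not analysed here). In the libraries labelled CR32027-IR1, borr, a subunit of the chromosomal passenger complex, and pim, the fly securin, were called higher than OreR, and pav, a kinesin of the cytokinetic ring, lower. The 2 genes called higher are 7.69% of the list and the 1 called lower is 3.85%, where 6.09% and 7.61% of all genes were called. Borr was at 65.3 ± 5.97 RPKM in CR32027-IR1, 64.0 ± 3.90 in CR32027-IR2 and 46.8 ± 5.90 in OreR (SD, n = 3). It was called in both comparisons against OreR, which share the OreR libraries (log2 0.48 and 0.45, limma adjusted p = 0.0127 and 0.0303), and was the 1 mitosis gene called in CR32027-IR2. Pim was at 61.9 ± 5.97, 43.2 ± 3.94 and 44.7 ± 1.71 RPKM (log2 difference 0.46 from OreR, limma adjusted p = 0.00757), and pav at 37.8 ± 2.83, 55.9 ± 4.48 and 52.6 ± 4.26 RPKM (log2 difference -0.47, limma adjusted p = 0.00675). Between the hairpin lines, pim and thr, a partner of separase, were higher in CR32027-IR1, and pav and feo, a microtubule bundler of the midzone, lower. The median log2 difference of the 26 genes was 0.10 in CR32027-IR1 and 0.05 in CR32027-IR2 against OreR, and the library medians in CR32027-IR1 were 0.15, 0.00 and 0.16, so that replicate 2 was the lowest here too.

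Among 14 of 15 listed genes of the E2F, Rbf and Myb complexes and of G1 (bantam was not analysed here), 1 was called: mip120, a subunit of the Myb and MuvB complex. It was at 21.6 ± 1.496 RPKM in CR32027-IR1, 28.3 ± 1.58 in CR32027-IR2 and 28.1 ± 1.64 in OreR (SD, n = 3), with log2 differences of -0.37 from OreR (limma adjusted p = 0.0083) and -0.38 from CR32027-IR2 (limma adjusted p = 0.00511). The list had a median log2 difference of 0.03 in CR32027-IR1 against OreR.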
